A study of Mus musculus with 4 samples.

Results

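The C4 fibroblasts are a stromal population of the mouse epididymis and vas deferens, made up of the 319 cells that share 1 final cell type name in the deposited annotation. They were 319 of the 8880 annotated cells and 14.4% (95% exact binomial interval 12.9 to 15.9) of the 2222 stromal cells. The other stromal cells were 975 myofibroblasts, 549 stem-like stromal cells, 226 secretory stromal cells and 153 C2 fibroblasts. Tissue came from 4 FVB/NJ male mice of 10 to 12 weeks, dissected into caput, corpus and cauda epididymis and vas deferens, and the pieces of each region were pooled into 1 droplet library. The labels name no transgene and no treatment. Because each of the 4 regions had 1 library and the population was clustered on the same genes described here, no test between regions or populations was made, and all intervals cover counting error only. Between the libraries, 43 cell barcodes occurred more than once (86 cells), 2 of these cells being C4 cells.

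The stroma around the epididymal duct holds fibroblasts, which make collagen and proteoglycan matrix, and peritubular myofibroblasts, which also carry smooth muscle actin and contract. Interleukin-6, encoded by Il6, is a secreted cytokine of activated fibroblasts that signals through the shared receptor chain gp130 and the transcription factor STAT3. Its gene is a classical target of NF-kB, the transcription factor of inflammatory signaling. Hspa5 encodes BiP, the main chaperone of the endoplasmic reticulum, and is a classical target of the unfolded protein response. The population's markers were Acta2, which encodes smooth muscle actin, and Il6.

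The promoters of Il6 and Hspa5 are shown because these were the most abundant genes of the NF-kB and unfolded protein response lists in C4. Each sequence is the 250 bases before the transcription start in RefSeq (GRCm38.p6), on the plus strand. Capitals mark an NF-kB motif in Il6 (chr5:30012864-30013113), which is GGGA and TTCC with any 2 bases between them. In Hspa5 (chr2:34771840-34772089) they mark the endoplasmic reticulum stress element, which is CCAAT and CCACG with any 9 bases between them.
Il6: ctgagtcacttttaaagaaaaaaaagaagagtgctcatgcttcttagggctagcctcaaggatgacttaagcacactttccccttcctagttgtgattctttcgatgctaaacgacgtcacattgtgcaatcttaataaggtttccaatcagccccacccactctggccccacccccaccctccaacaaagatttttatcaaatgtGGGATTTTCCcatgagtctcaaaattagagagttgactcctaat
Hspa5: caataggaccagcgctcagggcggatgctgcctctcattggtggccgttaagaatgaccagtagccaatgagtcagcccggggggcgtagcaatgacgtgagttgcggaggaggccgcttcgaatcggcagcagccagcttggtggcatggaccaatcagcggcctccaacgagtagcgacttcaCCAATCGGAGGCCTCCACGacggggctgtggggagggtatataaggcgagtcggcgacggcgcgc
The Il6 match began 44 bases before the start and the Hspa5 match 65 bases before it. Searched on both strands of all 32851 promoter windows of 300 bases (250 before to 50 after the start), the NF-kB motif occurred in 482 (1.47%) and the stress element in 39 (0.119%). Of the 15 genes of the NF-kB list below with a window, 5 held the NF-kB motif (Csf1, Cxcl1, Cxcl2, Il6 and Nfkbia) and 0 the stress element. Of the 14 genes of the unfolded protein response list with a window, 7 held the stress element (Calr, Canx, Creld2, Dnajc3, Hsp90b1, Hspa5 and Pdia6) and 0 the NF-kB motif. These matches describe the letters of the sequence and are not measurements of binding.

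C4 cells were found in all 4 libraries, with the largest number in corpus. There were 66 of 259 stromal cells in caput (25.5%, 20.3 to 31.2), 182 of 659 in corpus (27.6%, 24.2 to 31.2), 34 of 289 in cauda (11.8%, 8.29 to 16.1) and 37 of 1015 in vas deferens (3.65%, 2.58 to 4.99). The share in vas deferens was below that in each epididymal library, and the corpus supplied 57.1% of all C4 cells. The stromal cells of the vas deferens included 517 stem-like and 213 secretory cells, against 11 and 8 in cauda, which lowers any share taken over them. Beside myofibroblasts, C4 had 66 cells to 184 in caput, 182 to 420 in corpus, 34 to 162 in cauda and 37 to 209 in vas deferens. When only cells with at least 1000 UMIs were kept, the share was 8.60% in caput, 10.9% in corpus, 4.33% in cauda and 0.976% in vas deferens. The highest and the lowest library were the same, over the same kind of denominator.

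A UMI is a molecular tag that counts 1 captured RNA molecule, and C4 cells had few of them. Their median was 670 UMIs per cell (quartiles 454.5 and 1023), against 3821 in myofibroblasts, 3325 in C2 fibroblasts, 3065.5 in secretory stromal cells and 1991 in stem-like stromal cells. The myofibroblast median was 5.70 times that of C4. By library the C4 median was 582.5 UMIs in caput, 704 in corpus, 829.5 in cauda and 556 in vas deferens, so that all 4 libraries were shallow. A median of 450 genes was detected per C4 cell. The authors' removal of ambient RNA took 12.1% of the UMIs of C4 cells and 2.86% of those of myofibroblasts. In UMIs per cell the amounts were close, with a median of 121 removed from a C4 cell and 118 from a myofibroblast.

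Transcripts of the cytosolic ribosomal proteins were scarce in C4 cells. They made up 6.63% of all UMIs of C4 (95% interval 6.54 to 6.73), against 18.2% in myofibroblasts. Per cell, the median ribosomal share in C4 was 4.85% in caput, 5.13% in corpus, 3.10% in cauda and 3.58% in vas deferens. In myofibroblasts it was 17.2% in caput, 18.7% in corpus, 17.9% in cauda and 17.2% in vas deferens. In shallow cells alone, the 126 myofibroblasts with fewer than 1500 UMIs had a median of 13.4% and the 289 C4 cells with fewer than 1500 UMIs one of 4.47%. The basal cells annotated as low in UMIs, 315 cells with a median of 900 UMIs, had a median ribosomal share of 4.44%, against 23.0% in the main basal cells. These 2 basal populations were themselves told apart by ribosomal protein genes when they were clustered, so their shares are given as a description only. Principal cells, with a median of 934.5 UMIs, had a median ribosomal share of 6.85% in caput, 8.09% in corpus, 12.3% in cauda and 13.8% in vas deferens, above that of C4 in each. The part of RNA quality in the low ribosomal share of C4 was not tested. Transcripts of the mitochondrial genome, a usual measure of cell damage, were not analysed here.

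**Figure D1:**
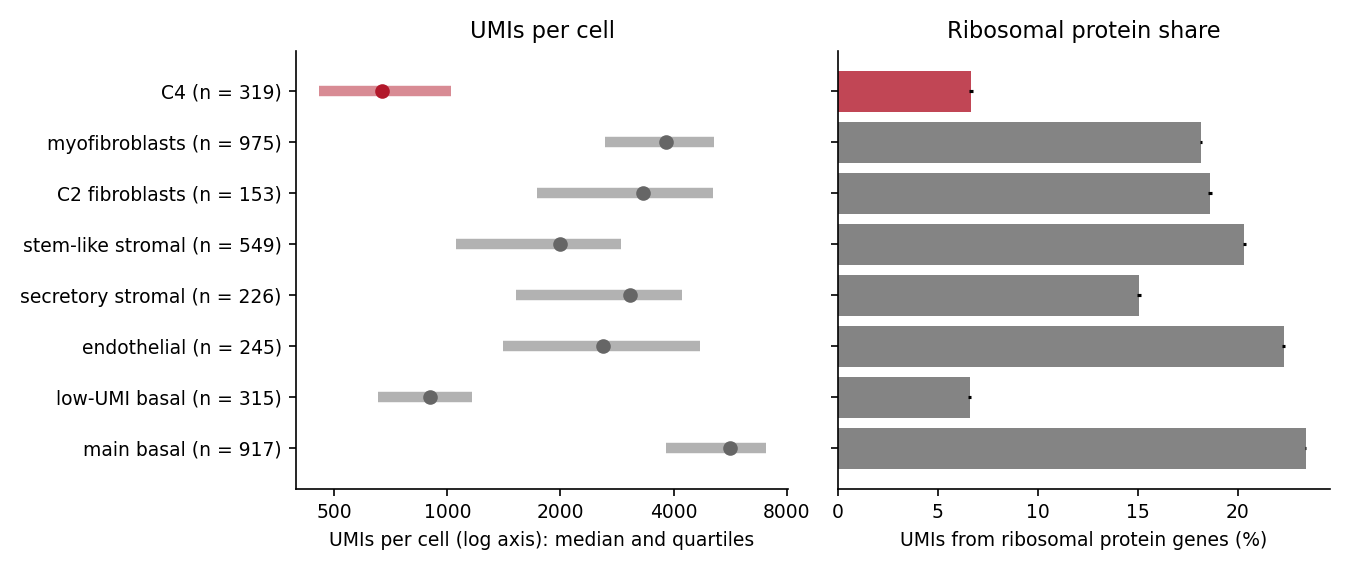
Left, UMIs per cell on a log axis (points, medians; lines, quartiles) and right, percent of UMIs from ribosomal protein genes (bars, with 95% counting intervals) for C4, the other stromal populations, endothelial cells and the 2 basal populations. Of the populations plotted, C4 and the low-UMI basal cells had the lowest medians, 670 and 900 UMIs, and the lowest ribosomal shares, 6.63% and 6.59%.

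Levels below are UMIs summed over cells per 1000000 UMIs (UPM), a unit for 3′ tags that needs no length correction, and 3 UMIs over the 281066 UMIs of C4 equal 10.7 UPM. A gene was called higher where C4 had at least 20 UMIs and at least 2 times the level of the comparison cells, and lower where 20 or more UMIs were expected and the level was at most 1/2. Against all other stromal cells, 2872 genes could be compared, of which 532 were higher (18.5%) and 235 lower (8.18%). Against myofibroblasts, 2847 genes could be compared, of which 487 were higher (17.1%) and 200 lower (7.02%). The median gene stood at 1.29 times the other stromal level and 1.25 times the myofibroblast level, and ratios should be read against these medians. A gene that reached 20 UMIs only by its C4 count, and not by the count expected from the comparison cells, was likely to be called higher for that reason. This held for 277 of the 487 genes higher than in myofibroblasts. Among the 2165 genes with at least 20 UMIs expected in C4 at the myofibroblast level, 210 were higher (9.7%) and 200 lower (9.24%), and the median ratio was 1.07. List counts against myofibroblasts are therefore also given over these genes, called well-counted. With ribosomal protein genes left out of the denominator, 362 genes were higher and 315 lower than in the other stromal cells, so that 53.5% of calls were higher instead of 69.4%, and the median log2 ratio moved from 0.37 to 0.13.

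The label was checked against markers of each cell type that stroma could hold. Both label genes were detected, Acta2 (chr19:34240336-34255585) with 2176 UMIs in 215 cells and Il6 (chr5:30013114-30019975) with 1487 UMIs in 106 cells. The contractile list summed to 30221 UPM in C4, against 29288 in myofibroblasts, 3817 in C2 fibroblasts and 135251 in smooth muscle. The fibroblast matrix list summed to 7077 UPM, against 4116 in myofibroblasts, 30669 in C2 fibroblasts, 27079 in secretory and 16922 in stem-like stromal cells. Summed over cells of all depths, C4 thus stood near myofibroblasts in contractile genes and below the 3 other fibroblast populations in matrix genes. The contractile list was highest in cells with at least 3000 UMIs in both populations but did not rise steadily below that depth. Among cells of like depth C4 was above myofibroblasts (24786 against 15952 UPM with fewer than 500 UMIs and 57097 against 30411 with at least 3000). The intervals overlapped at 500 to 1000 UMIs (22462 and 21241 UPM). All 8 C4 cells with at least 3000 UMIs belonged to earlier cluster 4, described further below. Levels given for these cells here and below therefore mix depth with cluster. Summed over all C4 cells, the lists for clear cells had 11 UMIs, myeloid cells 10, lymphocytes 1, Schwann cells 15, mesothelium 3, adipocytes 0 and erythrocytes 0. The genes with the largest ratios over other stroma, listed further below, could be compared only through their C4 counts. Those genes therefore cannot check the label, and nothing about it is read from them.

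**Figure D2:**
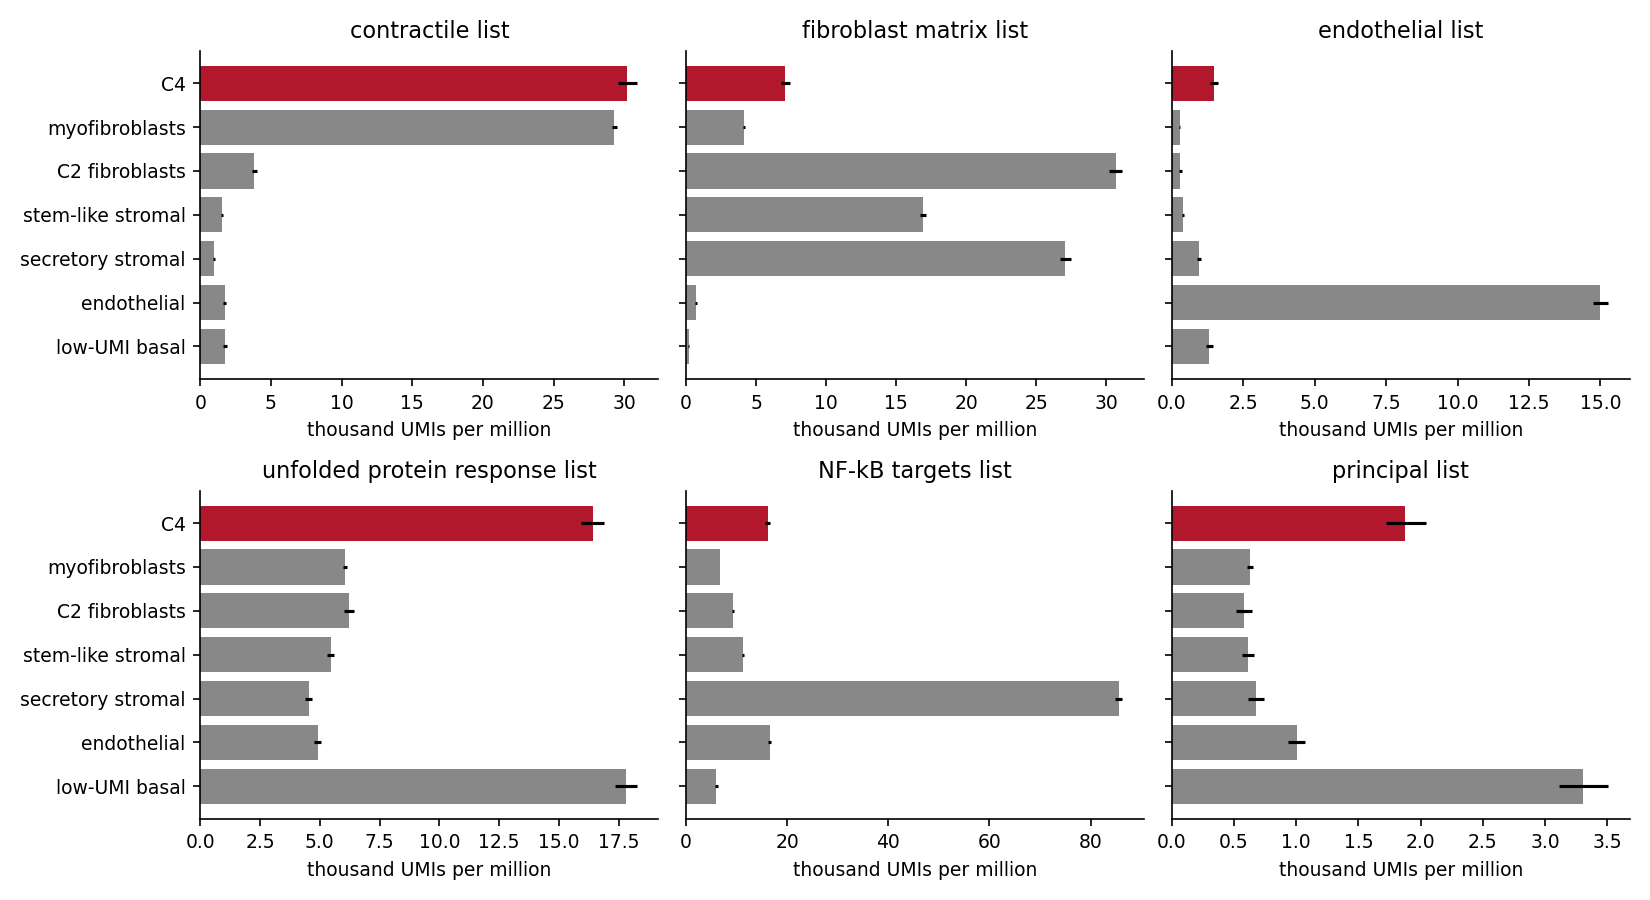
Summed levels of 6 gene lists (UPM divided by 1000, each panel with its own axis from 0) in C4, the other 4 stromal populations, endothelial cells and low-UMI basal cells, with 95% counting intervals. Summed over cells of all depths, C4 lay beside myofibroblasts for contractile genes (30221 and 29288 UPM) and beside low-UMI basal cells for the unfolded protein response (16416 and 17804 UPM).

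Il6 was the sixth most abundant gene of C4, at 5291 UPM (5025 to 5566). Its level in the other populations was 982 UPM in myofibroblasts, 574 in C2 fibroblasts, 537 in stem-like stromal cells, 1176 in endothelial cells and 7180 in secretory stromal cells of the vas deferens. Pooled over libraries, C4 thus ranked below the secretory stromal cells and 5.39 times (5.07 to 5.72) above myofibroblasts. By library the C4 level was 2184 UPM in caput (133 UMIs), 8512 in corpus (1308 UMIs), 158 in cauda (5 UMIs) and 1178 in vas deferens (41 UMIs). Myofibroblasts of the same libraries had 597, 1612, 282 and 621 UPM, so that the ratio was 3.66 in caput, 5.28 in corpus, 0.56 in cauda and 1.90 in vas deferens. C4 exceeded myofibroblasts in 3 of 4 libraries, and myofibroblast Il6 was itself highest in corpus. The pooled ratio of 5.39 lay above the ratio of every single library. The corpus gave 1308 of the 1487 Il6 UMIs of C4, so the pooled ratio mixes population with region and its interval does not cover this. Secretory stromal cells had 12355 UPM in corpus, 1938 in cauda and 7282 in vas deferens, above C4 in each. In cauda C4 had the lowest level of the 5 stromal populations, but its interval on 5 UMIs (51.2 to 368) included the myofibroblast level. Against all other stromal cells the ratio was 3.44 (3.25 to 3.63), and 0.938 (0.804 to 1.09) without the corpus library.

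Il6 was concentrated in few C4 cells. A UMI was found in 17 of 66 cells in caput, 80 of 182 in corpus, 3 of 34 in cauda and 6 of 37 in vas deferens. The 32 cells with the most UMIs held 82.4% of the 1487 UMIs, and the highest cell held 166. To compare shares at equal depth, each cell was thinned to 500 UMIs, which left out 91 C4 cells. Of the remaining 228 C4 cells, 33.3% (27.2 to 39.9) had an Il6 UMI, against 18.8% of myofibroblasts and 72.9% of secretory stromal cells. Unthinned, the C4 and myofibroblast shares were 33.2% and 34.4%, at median depths of 670 and 3821 UMIs. Principal cells, which should lack the gene, had 0.924% thinned and 2.55% unthinned at a median depth of 934.5 UMIs. Among cells with fewer than 1500 UMIs the C4 level was 7.49 times (5.88 to 9.67) that of myofibroblasts. In the 8 C4 cells with at least 3000 UMIs it was 1190 UPM (868 to 1592), against 927 (894 to 960) in myofibroblasts of that depth, with overlapping intervals.

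Of the other IL-6 family ligands, Il11 stood at 117 UPM on 33 UMIs, 1.23 times (0.837 to 1.76) the myofibroblast level, while Lif and Clcf1 had 3 UMIs each, Ctf1 had 1 and Osm had 0. Among the family's receptor genes, Il6st, which encodes gp130, stood at 174 UPM in C4 and 80.0 in myofibroblasts (2.18 times, 1.58 to 2.95). Osmr, the oncostatin M receptor, stood at 189 and 84.4 UPM (2.23 times, 1.64 to 2.99). Il6ra, the receptor chain that binds IL-6 itself, had 9 UMIs in all C4 cells. Of the receptor genes compared, 2 of 3 were higher than in myofibroblasts. Within single libraries they could be compared only in the corpus, where 0 of 3 were higher. Of the signal transducers, 0 of 4 were called, with Stat3 at 1.37 times (1.18 to 1.59). The feedback inhibitor Socs3 stood at 1.23 times (1.06 to 1.42), and 0 of 5 genes of its list of IL-6 targets and inhibitors were called.

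**Figure D3:**
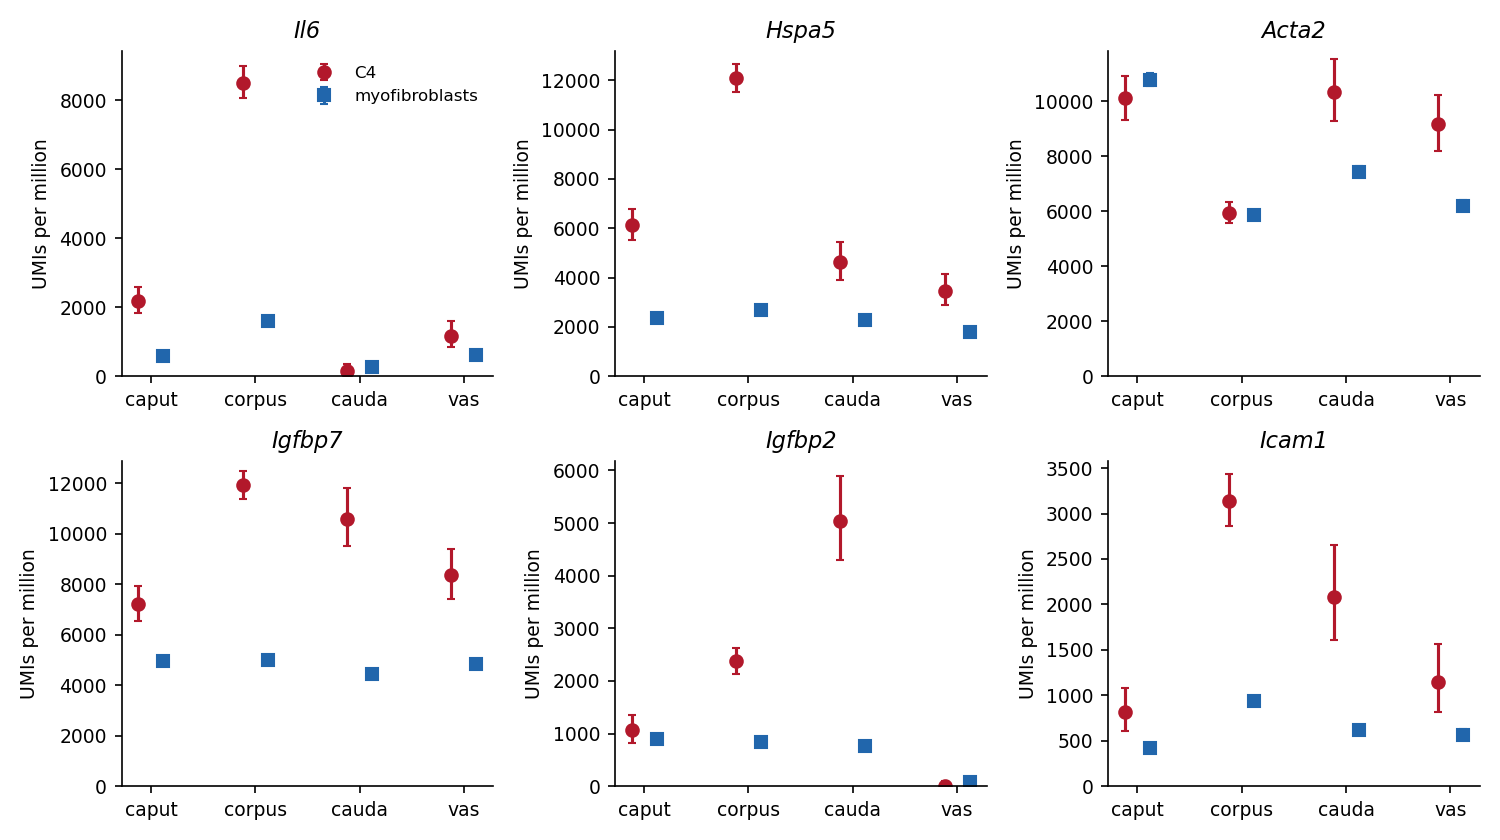
Levels (UPM) of Il6, Hspa5, Acta2, Igfbp7, Igfbp2 and Icam1 in each library, in C4 cells (circles) and myofibroblasts (squares), with 95% Poisson counting intervals. Hspa5, Igfbp7 and Icam1 were above the myofibroblast level in all 4 libraries, while Il6 was below it in cauda (158 against 282 UPM, with overlapping intervals).

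NF-kB target genes as a list summed to 16188 UPM in C4, against 6731 in myofibroblasts, 85582 in secretory stromal cells and 5990 in low-UMI basal cells. Of 16 genes compared with myofibroblasts 7 were higher and 0 lower (Icam1, Cxcl2, Il6, Ptgs2, Tnfaip2, Csf1 and Csf3), and of the 13 well-counted genes 4 were higher, with a median ratio of 1.53. Csf3, the granulocyte growth factor, had 53 of its 57 UMIs in 10 cells with venular markers, described further below, and without those cells 6 of 15 genes were higher. Il6 alone gave 1487 of the list's 4550 UMIs. Icam1, the adhesion molecule that leukocyte integrins bind, stood at 821 UPM in caput, 3137 in corpus, 2082 in cauda and 1150 in vas deferens. In myofibroblasts it stood at 424, 940, 613 and 564 UPM, below C4 in every library. In the 8 C4 cells with at least 3000 UMIs Icam1 stood at 661 UPM (428 to 976), close to the 708 of myofibroblasts of that depth. Ptgs2, the inducible cyclooxygenase of prostaglandin synthesis, was 1.81 times the myofibroblast level in caput, 2.77 in corpus, 1.41 in cauda and 4.14 in vas deferens. Nfkbia, which encodes the NF-kB inhibitor IkB-alpha, stood at 0.855 times. The list as a whole was 1.69, 2.71, 1.85 and 1.22 times the myofibroblast level in caput, corpus, cauda and vas deferens. Against all other stromal cells, which include the secretory population, 4 of 16 genes were higher and 2 lower (Ccl2 and Ccl7, chemokines of monocytes).

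Acta2 in C4 was close to the myofibroblast level when cells of all depths were summed. It stood at 7742 UPM (7420 to 8074) in C4 and 7212 in myofibroblasts, a ratio of 1.07 (1.03 to 1.12). By library the C4 level was 10097 UPM in caput, 5948 in corpus, 10346 in cauda and 9168 in vas deferens, and that of myofibroblasts was 10781, 5873, 7433 and 6187. The corpus was lowest in both populations, and C4 was above myofibroblasts in cauda and vas deferens. Among cells of like depth, C4 was above myofibroblasts with fewer than 500 UMIs (6863 and 3300 UPM), 1000 to 1500 (6701 and 3247), 1500 to 3000 (7934 and 5044) and at least 3000 (14598 and 7564), while at 500 to 1000 both were close (6046 and 6141 UPM). After thinning to 500 UMIs, 69.3% of C4 cells and 77.1% of myofibroblasts had an Acta2 UMI, against 3.14% of principal cells.

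Within the contractile list, 1 of 14 genes was higher than in myofibroblasts and 0 lower, with a median ratio of 1.16. That gene was Actg2, the enteric smooth muscle actin, at 2758 UPM in caput, 1165 in corpus, 2965 in cauda and 2558 in vas deferens. In myofibroblasts its level was 1099, 712, 1002 and 659 UPM, below C4 in each library. Myh11, smooth muscle myosin heavy chain, stood at 1.62 times, Des (desmin) at 1.09, Cnn1 (calponin) at 0.81 and Tagln (transgelin) at 0.66 of the myofibroblast level. Casq2, the calsequestrin that stores calcium in muscle reticulum (chr3:102086415-102146514), stood at 420 UPM in C4, 3.25 times (2.64 to 3.99) its level in myofibroblasts, the highest other population, but at 106 UPM (28.8 to 271) in the 8 C4 cells with at least 3000 UMIs, against 132 in myofibroblasts of that depth. Atp2a2, the calcium pump SERCA2 of the same compartment, was 2.11, 2.39, 3.81 and 2.93 times the myofibroblast level in caput, corpus, cauda and vas deferens.

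Among fibroblast matrix genes, 5 of 11 were higher in C4 than in myofibroblasts and 0 lower (Col6a1, Col6a2, Col6a3, Lum and Pdgfra). Of the 7 well-counted genes 3 were higher, with a median ratio of 1.79. Against all other stromal cells 1 of 15 was higher and 4 lower (Col1a2, Mfap5, Dpt and Serpinf1). Dcn, which encodes the proteoglycan decorin, stood at 3312 UPM in C4, between 1852 in myofibroblasts and 9595 in stem-like, 14733 in C2 and 19090 in secretory stromal cells. By library it stood at 2397, 3827, 4227 and 1811 UPM in C4 of the caput, corpus, cauda and vas deferens, above the myofibroblast levels of 1985, 1383, 3066 and 1417. Pdgfra, the receptor that marks fibroblasts, stood at 370 UPM, 2.85 times (2.28 to 3.52) the myofibroblast level. Dpt, which encodes dermatopontin of the fibroblast matrix, had 0 UMIs in C4, which allows up to 10.7 UPM, against 269 UPM in stem-like and 375 in secretory stromal cells.

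Postn, encoding the matricellular protein periostin (chr3:54359267-54391041), had 1018 UPM in caput, 612 in corpus, 1072 in cauda and 546 in vas deferens of C4. Myofibroblasts had 360, 136, 145 and 67.4 UPM, and the ratio over all libraries was 4.34 (3.70 to 5.08). Postn belonged to a list of targets of the tension-responsive factors YAP and SRF, of which 4 of 8 genes were higher than in myofibroblasts and 0 lower (Ctgf, Thbs1, Postn and Lox), all 4 of them among the 7 well-counted genes. The list stood at 1.83, 2.91, 2.40 and 2.49 times the myofibroblast level in the caput, the corpus, the cauda and the vas deferens. The integrin and collagen lists were chosen after their values had been seen, so their counts are a description. Of 30 integrin genes, receptors that anchor cells to matrix, 6 could be compared. Of these, 5 were higher (Itga1, Itga5, Itga8, Itgav and Itgb1), as were all 4 that were well-counted. Itgb1, the shared beta-1 chain, was 2.12, 3.05, 3.09 and 2.70 times the myofibroblast level in the 4 libraries. Of the collagen genes, 8 of 19 were higher and 0 lower, and 5 of 13 well-counted ones were higher. Over all genes 17.1% of those compared and 9.7% of the well-counted ones were higher. Col12a1, a fibril-associated collagen, ranged from 29 UPM in vas deferens (1 UMI) to 2807 UPM in cauda (89 UMIs).

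Among insulin-like growth factor binding proteins, Igfbp7 and Igfbp2 were abundant in C4. Igfbp7, the third most abundant gene, stood at 7207 UPM in caput, 11929 in corpus, 10599 in cauda and 8363 in vas deferens. Myofibroblasts had 4974, 5017, 4442 and 4840 UPM, lower in each library. Igfbp2 (chr1:72824480-72852474) stood at 2099 UPM, 2.95 times (2.69 to 3.23) its level in myofibroblasts, which ranked next of all populations. Its level in C4 was 1067 UPM in caput, 2375 in corpus, 5047 in cauda and 0 UMIs in vas deferens, where 3 UMIs would be 86.2 UPM. Myofibroblasts of the vas deferens had 75.6 UPM, so at this depth no difference was detectable there. In the 8 C4 cells with at least 3000 UMIs Igfbp2 stood at 291 UPM (145 to 521), below the 756 of myofibroblasts of that depth. These cells included no cell of the cauda, where Igfbp2 was highest. All were of earlier cluster 4, described further below, which had 837 UPM against 3153 in the other C4 cells. Depth, region and cluster therefore cannot be told apart here.

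Chaperones of the endoplasmic reticulum were high in C4. Hspa5 (chr2:34772090-34776529) stood at 8888 UPM (8542 to 9243), 3.72 times (3.56 to 3.89) the myofibroblast level. By library it was 6124 UPM in caput, 12085 in corpus, 4637 in cauda and 3478 in vas deferens, against 2365, 2672, 2271 and 1786 in myofibroblasts. All 4 libraries were above the myofibroblast level, by 2.59, 4.52, 2.04 and 1.95 times. Thinned to 500 UMIs, 77.6% (71.7 to 82.9) of C4 cells and 55.6% of myofibroblasts had a Hspa5 UMI. The gene is expressed in every cell type, and 57.6% of principal cells had a UMI.

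The list of unfolded protein response genes, put together after their values had been seen, summed to 16416 UPM in C4 and 6069 in myofibroblasts. Of 14 genes compared 9 were higher and 0 lower, and of the 12 well-counted genes 8 were higher, with a median ratio of 2.12. These 8 included the chaperones Hsp90b1 (2.12 times), Calr (2.28 times) and Dnajb9 (2.22 times) and the disulfide isomerase Pdia3 (2.10 times). Pdia4, another isomerase, stood at 3.18 times and was compared only through its C4 count. Xbp1, a transcription factor of the same response, stood at 1.31 times (1.01 to 1.68). From the stress and arrest list, the transcription factor gene Ddit3, which encodes CHOP, was lower than in myofibroblasts (0.390 times, 0.237 to 0.607), while Atf4 stood at 0.613 times (0.522 to 0.716) and was not called. The unfolded protein response list stood at 1.74, 3.23, 1.95 and 1.84 times the myofibroblast level in caput, corpus, cauda and vas deferens. Low-UMI basal cells, at 17804 UPM, also exceeded the main basal cells, at 5825 UPM. The Hspa5 level moved with depth inside C4, from 11779 UPM in cells with fewer than 500 UMIs to 4073 UPM in cells with at least 3000. The latter cells all belonged to earlier cluster 4, described further below, whose Hspa5 level was 4012 UPM against 12958 in the other C4 cells. Depth and cluster therefore cannot be told apart there, and the part of RNA quality in the Hspa5 level was not tested.

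**Figure D4:**
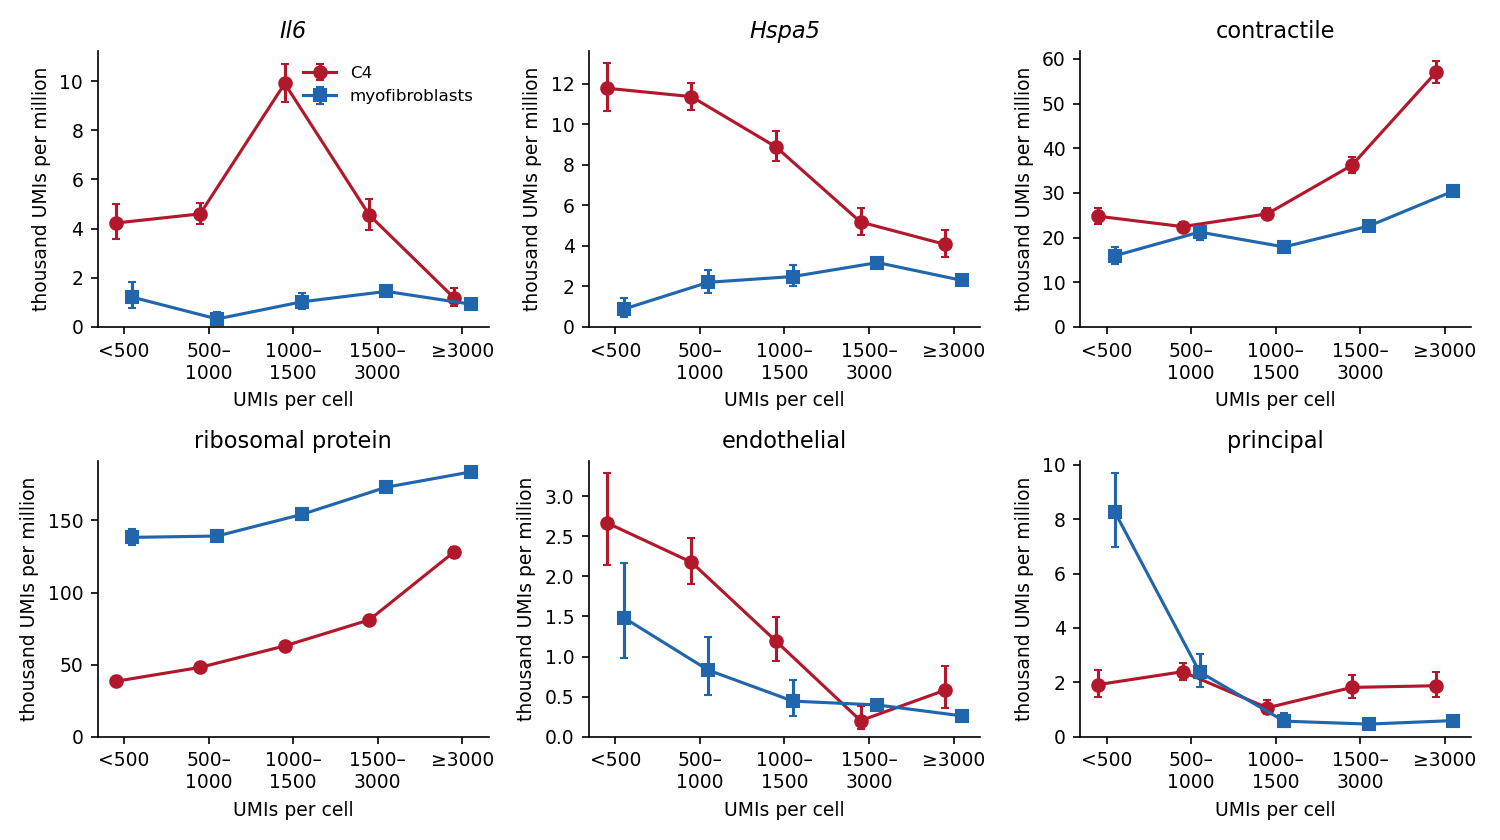
Levels of Il6, Hspa5 and the contractile, ribosomal, endothelial and principal lists in C4 cells and myofibroblasts sorted by UMIs per cell (fewer than 500, to 1000, to 1500, to 3000, and 3000 or more), with 95% counting intervals. C4 was above myofibroblasts for Hspa5 and below them for ribosomal genes in every bin, whereas the principal list was higher in myofibroblasts with fewer than 500 UMIs (8251 against 1918 UPM). All C4 cells of the deepest bin belonged to earlier cluster 4.

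Ribosomal protein genes gave 67 of the 200 genes called lower than in myofibroblasts. Of 75 genes compared, 67 were lower than in myofibroblasts and 0 higher, with a median ratio of 0.354. By library the list stood at 0.460, 0.328, 0.208 and 0.510 times the myofibroblast level in caput, corpus, cauda and vas deferens. The share increased with depth in C4, from 3.85% of UMIs in cells with fewer than 500 UMIs to 12.8% in cells with at least 3000, and was 13.8% and 18.4% in the same bins of myofibroblasts. Translation factors, chosen after their values had been seen, had 8 of 39 genes lower and 1 higher (Eif2s3y). Eef1a1, the elongation factor that brings tRNA to the ribosome, stood at 2128 UPM in C4 and 6090 in myofibroblasts. Of the nuclear genes of the respiratory chain and ATP synthase, chosen in the same way, 16 of 66 were lower and 0 higher, with a median ratio of 0.676. Fth1, the ferritin heavy chain, stood at 0.571 times the myofibroblast level and at 0.62, 0.62, 0.44 and 0.55 times in the 4 libraries.

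Summed over libraries, few genes of acute stress differed between C4 and myofibroblasts by 2 times. Of the immediate early genes, which dissociation of tissue is known to induce, 0 of 19 were higher than in myofibroblasts and 1 lower (Maff). Of the cytosolic heat shock genes, 0 of 9 were higher and 1 lower (Hspe1), and of the stress and arrest genes, 0 of 7 were higher and 1 lower (Ddit3). Within single libraries Gadd45a was higher in caput and Fosl2 in cauda. Called lower were Fos and Klf6 in caput, Jund, Klf2, Maff, Hspe1, Ddit3 and Atf4 in corpus, Maff and Hspa8 in cauda, and Maff and Hspb1 in vas deferens. As lists the immediate early genes stood at 1.13 times (1.04 to 1.23) in cauda. In vas deferens the heat shock genes stood at 1.25 times (1.08 to 1.43) and the stress and arrest genes at 1.18 times (1.01 to 1.37). The immediate early list was lower in caput (0.889) and corpus (0.819), and the stress and arrest list in corpus (0.780) and cauda (0.878). The heat shock list stood at 0.906, 0.903 and 0.750 in caput, corpus and cauda. Metallothioneins, small proteins that bind zinc and copper, were the most abundant C4 transcripts, with Mt1 at 15772 UPM and Mt2 at 10727 UPM. Against myofibroblasts they stood at 0.836 and 0.881 times, but the direction differed by library. Mt1 and Mt2 stood at 1.45 and 1.75 times in caput and at 0.586 and 0.721 times in corpus. The 3 MHC class I genes of a list chosen after seeing values were all higher, H2-D1 at 2.43 times, H2-K1 at 2.46 times and B2m, the shared light chain, at 2.03 times. Without cells bearing venular markers, described further below, 2 of 3 remained higher. Within libraries 3 of 3 were higher in corpus, 1 of 3 in vas deferens (B2m) and 0 of 3 in caput and in cauda. Of solute carrier genes, chosen in the same way, 16 of 33 were higher and 0 lower, but 4 of the 14 that were well-counted.

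Among genes with at least 20 UMIs in at least 10 C4 cells, the 10 with the largest ratio over every other population were Casq2, Enpep, Igfbp2, Angptl4, Chrdl1, Vit, Tmem45a, Ager, Boc and Gpc3, at 2.53 to 3.25 times the next population. For 9 of them the next population was the myofibroblasts, and for Boc, a co-receptor of Hedgehog signaling, it was a subpopulation of the muscle cells. Angptl4, an inhibitor of lipoprotein lipase, stood at 359 UPM in C4 and 124 in myofibroblasts (2.90 times, 2.31 to 3.60). Chrdl1, a secreted antagonist of bone morphogenetic proteins, stood at 505 and 177 UPM (2.86 times, 2.37 to 3.43). Gpc3, a cell surface heparan sulfate proteoglycan, stood at 345 and 137 UPM. Enpep, the aminopeptidase A that cleaves angiotensin, stood at 128 UPM on 36 UMIs in 34 cells, against 43.3 in myofibroblasts. Tmem45a, whose ratio over all other stromal cells was 0.751 without the corpus library, stood at 377 and 144 UPM.

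Lowest against all other stromal cells were 10 genes that, among the stromal populations, had their highest level in the stem-like or the secretory cells. Dpt, with 0 UMIs, stood at most at 0.110 times the other stromal level. Inmt stood at 0.0165 times (0.0020 to 0.0597) on 2 UMIs, Tslp at 0.0286 times (0.00072 to 0.160) on 1 UMI, C3 at 0.0495 times (0.0013 to 0.277) on 1 UMI, Entpd2 at 0.0671 times (0.0081 to 0.243) on 2 UMIs and Rhou at 0.0905 times (0.0109 to 0.329) on 2 UMIs. Those with more UMIs were Ptx3 (0.0486 times), Ccl7 (0.0621 times), Angpt1 (0.120 times) and Sult1e1 (0.128 times). Without the vas deferens library Angpt1 stood at 1.98 times (0.380 to 6.54), so that its low ratio rested on that library. Tslp and Ccl7 encode a cytokine and a chemokine, Ptx3 and C3 innate immune proteins, and Angpt1 a ligand that stabilises vessels. Against myofibroblasts the direction turned for Ccl7 (1.53 times, 1.03 to 2.19) and Sult1e1 (9.56 times, 3.09 to 27.8, on 7 UMIs). C3 and Ptx3 had ratios of 3.41 (0.069 to 34.5) and 1.82 (0.466 to 5.17), which the counts could not separate from 1. The stem-like list had 2 of 3 genes lower than in other stroma (Angpt1 and Lgr5), and the secretory list 5 of 10 lower and 1 higher (Il6). Against myofibroblasts the secretory list had 3 of 7 genes higher and 0 lower (2 of 6 well-counted genes higher), and its ratio was 3.15 (3.02 to 3.29). Its ratio over other stroma turned above 1 without the vas deferens library.

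Within single libraries the counts were smaller. In the caput 606 genes could be compared with myofibroblasts, 109 of them higher (18%) and 94 lower (15.5%). The corpus gave 1596 genes, 407 higher (25.5%) and 203 lower (12.7%), the cauda 365 genes, 87 higher (23.8%) and 132 lower (36.2%), and the vas deferens 347 genes, 48 higher (13.8%) and 76 lower (21.9%). Of the 272 genes that could be compared in all 4 libraries, 8 were higher in every one (Atp2a2, Ctsl, Itgb1, Nptn, Sec62, Son, Spink8 and Vcl) and 37 lower in every one, most of them ribosomal protein genes. Vcl, encoding vinculin of focal adhesions, stood at 607 UPM in caput, 482 in corpus, 1167 in cauda and 661 in vas deferens, against 244, 201, 390 and 278 in myofibroblasts. Ctsl, the lysosomal protease cathepsin L, was 2.54, 3.99, 2.84 and 2.21 times the myofibroblast level. Sec62, a subunit of the translocon of the endoplasmic reticulum, was 2.40, 3.06, 3.40 and 2.29 times. The unfolded protein response list had 1 of 7 genes higher in caput (Hspa5), 9 of 13 in corpus, 3 of 6 in cauda and 1 of 5 in vas deferens (Canx), and 0 lower in each.

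An earlier clustering round in the annotation had placed C4 cells in 2 clusters, 206 in cluster 15 and 113 in cluster 4. Cluster 15 held 34 C4 cells of the caput, 133 of the corpus, 21 of the cauda and 18 of the vas deferens, and also 73 C2 fibroblasts. Cluster 4 held 32, 49, 13 and 19 C4 cells, 947 of the 975 myofibroblasts and 68 C2 fibroblasts. The clusters were built on these counts, so their difference is given as a description. Il6 stood at 8937 UPM in the cells of cluster 15 and 923 in those of cluster 4, and Hspa5 at 12958 and 4012 UPM. The matrix list stood at 9837 and 3769 UPM, and Dcn at 4804 and 1525 UPM. In the other direction, the contractile list stood at 17612 UPM in cluster 15 and 45326 in cluster 4, and Mt1 at 7167 and 26080 UPM. C4 thus joined an Il6 and matrix-rich group with a more contractile one. The deepest C4 cell of cluster 15 had 2941 UMIs, so that all 8 C4 cells with at least 3000 UMIs were of cluster 4. No C4 cell of the cauda had more than 2941 UMIs either. Levels in those 8 cells therefore mix depth with cluster and region, and the part of each was not tested. Within libraries, the contractile list of cluster 15 was 0.616, 0.322, 0.419 and 0.456 times that of cluster 4, and the matrix list 1.86, 2.47, 4.59 and 2.90 times, in caput, corpus, cauda and vas deferens. The Il6 ratio was 3.96 in caput and 14.5 in corpus but 1.22 (0.59 to 2.40) in vas deferens, and the cauda had 5 UMIs against 0.

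A few C4 cells carried transcripts of post-capillary venules, the vessels where leukocytes leave the blood. The genes Selp and Sele encode P- and E-selectin, which catch rolling leukocytes, and Ackr1 a chemokine-binding receptor of venular endothelium (chr1:164115264-164150026, chr1:164039614-164058487 and chr1:173331886-173333503). A UMI of any of the 3 genes was found in 10 of 319 C4 cells (3.13%, 1.51 to 5.69). After thinning to 500 UMIs the share was 6 of 228 (2.63%, 0.972 to 5.64), against 0.109% of myofibroblasts, 0.610% of stem-like stromal cells, 2.46% of secretory stromal cells and 48.2% of endothelial cells. All 6 came from the corpus, and without that library the share was 0%. The C4 interval included the share of the secretory stromal cells. Thinned to 1000 UMIs, which left 84 C4 cells, the share was 1 of 84 (1.19%, 0.0301 to 6.46), against 4.32% of secretory and 0.941% of stem-like stromal cells. Unthinned, 3.10% of stem-like and 6.19% of secretory stromal cells had a UMI. An excess of C4 over these 2 populations was thus not measured at every depth. Background shares were 0.714% in low-UMI basal cells, 0.898% in main basal cells, 0.407% in principal cells and 0 of 291 clear cells, where 3 cells would be 1.03%. Of the 10 cells 8 came from the corpus, 1 from the caput and 1 from the vas deferens, and 8 belonged to the earlier cluster 15.

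These 10 cells were rich in endothelial and poor in stromal transcripts. Together they had 5701 UMIs, with a median of 578 per cell, of which 168 were of the 3 genes (74 Selp, 51 Sele and 43 Ackr1). The endothelial list, which held none of the 3 genes, summed to 234 UMIs or 41045 UPM, against 665 UPM in the other 309 C4 cells (61.8 times, 50.7 to 75.4) and 14995 UPM in the annotated endothelial cells. Cell by cell the endothelial list had 32, 17, 42, 43, 17, 2, 12, 26, 39 and 4 UMIs. The contractile list had 7 UMIs in all 10 cells, none of them Acta2, and the matrix list 1. Of the lists of other cell types, the myeloid list had 7 UMIs in the 10 cells and 3 in the other 309. The principal list had 28 and 499 UMIs (2.71 times by level, 1.78 to 3.97). All 10 had more endothelial than contractile and matrix UMIs together, and 6 had 0 of both. Among the other 309 cells this held for 7, of which 5 had at least 5 endothelial UMIs.

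**Figure D5:**
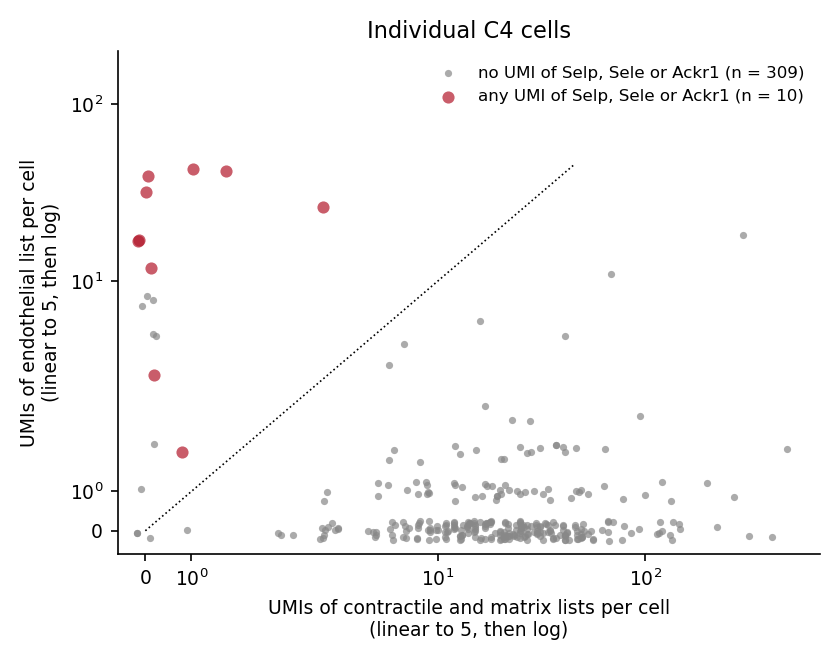
UMIs of the endothelial list against those of the contractile and matrix lists together, 1 point per C4 cell (both axes log above 5 UMIs and linear below, points shifted slightly at random), with a dotted line where both are equal. The 10 cells with Selp, Sele or Ackr1 UMIs lay above the line, and 299 of the other 309 cells had more stromal than endothelial UMIs.

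Between the 10 cells and the other 309, 34 genes could be compared, of which 17 were higher (50%) and 7 lower (20.6%). The 3 genes that chose the cells were among the 17, and with only 5701 UMIs in the 10 cells a gene reached the minimum of 20 UMIs there mainly by being high in them, so nothing is read from these shares. Vcam1, an adhesion molecule of activated endothelium, had 58 UMIs in the 10 cells and 27 in the other 309 (104 times by level, 64.7 to 170). Csf3 had 53 and 4 UMIs, and Lrg1, a glycoprotein of venules, 24 and 4 UMIs. Tm4sf1, a membrane protein of endothelium, had 148 and 74 UMIs (96.6 times, 72.6 to 129). Cxcl1, a neutrophil chemokine, had 75 and 379 UMIs (9.56 times, 7.36 to 12.3), and H2-D1 and H2-K1 were also higher. Hspa5, Mt1 and Junb were among the 7 lower genes. Without the 10 cells, the endothelial list of C4 was 1.75 times (1.497 to 2.03) the level of other stroma, against 3.91 times with them. Against myofibroblasts 472 of 2793 genes were then higher (16.9%) and 199 lower (7.12%). Of the 2126 well-counted genes 208 were higher (9.78%) and 199 lower (9.36%). Of the 18 endothelial genes 4 could be compared, 2 of them only through their C4 count. Both well-counted genes were higher with the 10 cells, and 1 of 2 (Tm4sf1) without them, while Il6 stayed at 5.33 times the myofibroblast level.

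The 15 genes with the largest ratio over other stroma were ranked among genes with at least 20 UMIs in at least 10 C4 cells. All 15 reached 20 UMIs only by their C4 count, and Selp was also used to choose the 10 cells with venular markers. They are therefore listed as a description, and no theme is read from them. Ackr1 (28.8 times, 7 cells) and Sele (21.2 times, 6 cells) were found in too few cells to be ranked. Selp (43.0 times), Lrg1 (20.6), Pecam1 (14.7), Plvap (11.04) and Aqp1 (6.88) are genes of vessel endothelium. Of the 5 genes of the endothelial list compared with other stroma, 4 were higher (Pecam1, Emcn, Tm4sf1 and Plvap) and 1 lower (Cd34). Of all genes compared, 18.5% were higher and 8.18% lower. Defb37 (23.8), Defb22 (10.3) and Defb28 (9.07) encode beta-defensins, Spint4 (12.2), Spint3 (7.71) and Spink10 (8.88) protease inhibitors, Bsph2 (22.8) a sperm-binding protein and Spag11b (8.28) a defensin-like peptide of the epididymal epithelium. The direction of Spink10 turned when only C4 cells and myofibroblasts with fewer than 1500 UMIs were compared. The remaining genes were Npy (7.69), a neuropeptide, and Ank1 (7.36), a membrane skeleton adaptor. Spag11b was found in 10 C4 cells, and 133 of its 135 UMIs came from the caput, the region where its epithelium secretes it. Of 38 beta-defensin genes 7 could be compared with myofibroblasts, 5 of them only through their C4 count, so that nothing is read from their all being called higher. The 2 that were well-counted, Defb20 and Defb28, were higher, as were 3 of 4 well-counted genes of the principal cell list (Akr1b7, Crisp1 and Gpx5).

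The level of these epithelial transcripts relative to myofibroblasts depended on depth. The principal list stood at 1875 UPM in C4, 632 in myofibroblasts and 3306 in low-UMI basal cells, and its most abundant gene was Crisp1, a secreted sperm-coating protein, with 252 of the list's 527 UMIs. By library it stood at 2233, 1477, 1546 and 3305 UPM in C4 and at 1024, 367, 754 and 716 UPM in myofibroblasts of the caput, corpus, cauda and vas deferens. C4 was above myofibroblasts among cells with 1000 to 1500 UMIs (1067 and 576 UPM), with 1500 to 3000 (1815 and 468 UPM) and with at least 3000 (1878 and 597 UPM), with intervals that overlapped in the first of these groups and lay apart in the other two. With 500 to 1000 UMIs both stood close together (2393 and 2384 UPM), and with fewer than 500 the myofibroblasts were higher (8251 against 1918 UPM), where Crisp1 gave 102 of their 150 UMIs. Over all cells with fewer than 1500 UMIs the ratio was therefore 0.667 (0.565 to 0.788). The endothelial list of C4 was 2.44 times (1.88 to 3.21) the myofibroblast level in cells with fewer than 1500 UMIs, but 0.988 times (0.737 to 1.34) without the 10 cells with venular markers, all of which had at most 1179 UMIs. Il6 was 7.49 times the myofibroblast level in these cells and 7.42 times without the 10. A doublet search by simulated pairs marked 178 of all cells (2.00%), 3 of them C4 cells and 0 of them the 10 cells with venular markers, but in caput, corpus and cauda it missed more simulated pairs than it found.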

How the data were processed

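Cells were captured with 10x 3′ chemistry, 1 library per region, from pooled tissue of 4 mice. Per the methods, the authors aligned reads with HISAT2 2.0.4 to mm10, counted UMIs per gene with ESAT, kept cells within limits of UMI number (350 to 14999 in the deposited totals) and removed ambient RNA with SoupX. The deposited table holds UMI counts of 16892 genes per cell after that removal, with cell names, cell type names, counts of UMIs and genes per cell, and scran size factors as a ratio deposited by the authors (summarised as medians only). Library totals were 4408989 (caput), 6602962 (corpus), 4882822 (cauda) and 10744928 UMIs (vas deferens), 26639701 in all. Multi-mapped reads were ignored, so near-identical genes such as defensins are uncertain.

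C4 cells were taken by the annotated name, and UMIs were summed over cells. Intervals were exact Poisson (levels), conditional binomial (ratios) and Clopper-Pearson (shares) at 95%, with a floor of 3 UMIs. The members and gene lists were chosen with earlier results of these data known, and 10 lists (unfolded protein response, metallothionein, MHC class I, respiratory chain, integrins, collagens, solute carriers, translation factors, translocon, beta-defensins) after values were seen. Named genes were, among genes with at least 20 UMIs in at least 10 C4 cells, the 15 largest ratios over other stroma and the 10 largest over the highest other population; further, the 10 smallest, the 10 most abundant, the 10 largest between cells with and without venular markers, and members of described lists. The ratio calls were tested on simulated counts with known changes. Doublets were sought with simulated pairs of cells and kept; the search missed more simulated pairs than it found in 3 of the 4 libraries, so doublets may be unmarked. Sequences and gene positions came from RefSeq (GRCm38). Tables were handled with pandas 2.3.3 in Python 3.11.15, intervals with scipy 1.17.1, arrays with numpy 2.4.6, neighbour searches with scikit-learn 1.9.0 and plots with matplotlib 3.10.9.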

Additional observations from a re-analysis of the deposited data

Results flagged for a closer look

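For the following genes and lists, the ratio of C4 over myofibroblasts lay above 1 in one library and below 1 in another with counting intervals on opposite sides of 1. The differences between libraries were not tested, since each region had 1 library, and no explanation was tested.

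Mt1, a metallothionein, stood at 1.45 in caput, 0.586 in corpus, 0.801 in cauda and 0.897 in vas deferens. Mt2 stood at 1.75, 0.721, 0.615 and 0.826 in the same order, and both genes as a list at 1.54, 0.643, 0.714 and 0.875. Only the caput was above 1. Actb, cytoplasmic actin, stood at 0.984, 0.939, 0.785 and 1.7, above 1 in vas deferens alone. The heat shock list stood at 0.906, 0.903, 0.75 and 1.25. The immediate early list stood at 0.889 in caput, 0.819 in corpus, 1.13 in cauda and 1.07 in vas deferens. The stress and arrest list stood at 1.04, 0.78, 0.878 and 1.18 in the same order.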

How the results depend on the processing

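The library left out, shallow cells, the thresholds and the choice of comparison cells all moved C4 values. With only cells of at least 1000 UMIs, C4 had 16 cells in caput, 50 in corpus, 10 in cauda and 8 in vas deferens (84 in all), which were 8.60%, 10.9%, 4.33%, 0.976% and 4.96% of stromal cells. The median depth of C4 over other stroma was 0.216, 0.247 before ambient removal, and 0.171 to 0.229 with 1 library left out.

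Against other stroma 532 genes were higher and 235 lower. In cells of at least 1000 UMIs the totals were 217 and 146, of which 170 and 124 were among the 532 and 235. Thinned to 500 UMIs, 319 were higher, 237 of them among the 532. Counting only genes with at least 20 UMIs expected, an alternative chosen after seeing the data, left 216 higher, which was 47.9% of calls against 69.4%. The higher count was 937 at a minimum of 10 UMIs and 230 at 50, and a fold of 4 left 59 higher and 35 lower. Leaving out 1 library gave 289 (corpus) to 521 higher and 183 to 234 lower.

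The Il6 ratio over other stroma (3.44) was 2.28 with equal weight for the 4 comparison populations, 5.69 against myofibroblasts and C2 fibroblasts, 3.94 at 1000 UMIs or more, 4.12 thinned and 3.01 without ribosomal genes in the denominator. It ranged from 0.938 (without the corpus) to 5.71 (without the vas deferens). Acta2 (1.70) gave 3.88, 1.21, 1.98, 1.80 and 1.49 under the same settings and 1.16 (without the vas deferens) to 2.38. The contractile list (1.60) gave 3.40, 1.16, 1.93, 1.72 and 1.41, and 1.13 to 2.22. The matrix list (0.624) gave 0.359, 0.949, 0.562 and 0.547 (thinned, it stayed within its interval), and 0.463 to 0.997 with 1 library left out. The endothelial list (3.91) gave 3.08, 5.11, 1.98, 4.47 and 3.42, 1.75 without the 10 venular cells, and 2.29 (without the corpus) to 5.25.

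Comparison with myofibroblasts alone and with cells under 1500 UMIs was chosen after seeing the data. These gave 5.39 and 7.49 for Il6, 1.07 and 1.52 for Acta2, 1.03 and 1.28 for the contractile list, 1.72 and 1.76 for the matrix list, whose direction turned, and 5.16 and 2.44 for the endothelial list. Without the 10 venular cells, also chosen after seeing the data, the endothelial ratio at low depth was 0.988 (0.737 to 1.34). Of other named genes and lists, the secretory list turned direction against myofibroblasts and C2 fibroblasts (2.79), without the vas deferens (2.69), against myofibroblasts alone (3.15) and at low depth (3.34). Dcn did so without the vas deferens (1.10), against myofibroblasts (1.79) and at low depth (1.72). Over libraries left out in turn, the secretory list ranged from 0.237 to 2.69, Dcn from 0.334 to 1.10, Angpt1 from 0.0837 to 1.98, Tmem45a from 0.751 to 3.57, Mt1 from 0.744 to 1.16, the metallothionein list from 0.762 to 1.04, the immediate early list from 0.879 to 1.09, Junb from 0.966 to 1.24 and Actb from 0.969 to 1.48. The principal list (0.667) and Spink10 (0.646) turned at low depth. Against myofibroblasts alone Ccl7 (1.53) and Sult1e1 (9.56) turned, and C3 (3.41) and Ptx3 (1.82) lay above 1 with intervals that included 1. In cells of at least 1000 UMIs the metallothionein list (1.11), Mt1 (1.15) and Mt2 (1.04) turned, and Junb without ribosomal genes in the denominator (0.937). Without the corpus the metallothionein list, Mt1, the immediate early list and Tmem45a turned, without the vas deferens Actb and Angpt1, and without the caput Junb. The cause was not tested.

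The thinned share of cells with venular markers ranged from 0% (without the corpus) to 3.19% with 1 library left out. Their endothelial ratio of 61.8 was 82.6 in cells of at least 1000 UMIs, where it rested on 1 cell with venular markers. With 1 library left out it was 38.4 to 73.7. The lowest value, without the corpus, rested on 1 such cell of the caput and 1 of the vas deferens. Of 922 recomputed values, 28 lay on the other side of 1. No paired test over the 4 libraries was made, because the populations were clustered on the genes compared. C4 against myofibroblasts within the 4 libraries is therefore a description, and each region had 1 library.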

Other observations

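Pericyte genes were also detected in C4. The pericyte list summed to 822 UPM in C4 and 492 in myofibroblasts. By library it summed to 345, 430, 568 and 3621 UPM in C4 of the caput, corpus, cauda and vas deferens. Myofibroblasts had 246, 357, 236 and 1507 UPM, so that the vas deferens was highest in both populations. The intervals of the ratio included 1 in caput (0.846 to 2.20) and corpus (0.919 to 1.55). Rgs5, a regulator of G protein signaling in mural cells, gave 66 of its 68 UMIs in vas deferens. Mcam, an adhesion molecule of pericytes and endothelium, stood at 189 UPM in C4 and 86.3 in myofibroblasts (2.19 times, 1.60 to 2.93).

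The basal cell list had 70 UMIs in C4, with Cldn1 its most abundant gene, and the lymphatic list 57, all of Pdpn, which fibroblasts also express. Proliferation genes had 5 UMIs in all 319 cells. The angiogenic ligand list stood at 185 UPM in C4 and 1009 in stem-like stromal cells.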
